A study of Mus musculus with 8 samples.

Results

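The 9 genes described here belong to the purinergic and adenosine pathway and were measured in an in vitro model of CD8 T cell dysfunction. They were picked by symbol: *Entpd1*, *Nt5e*, *Cd38*, *Adora2a*, *P2rx4*, *P2rx7*, *Art2b*, *Ada* and *Slc29a1*, and all 9 were found among the 24303 genes of the deposited expression table. The values are RNA-Seq normalized counts, which the authors obtained by dividing the read count of each gene by a size factor of its library. The P14 CD8 T cells used, whose transgenic receptor recognises GP33 (a peptide of lymphocytic choriomeningitis virus), came from spleens of uninfected male or female mice at least 8 weeks old. All groups were first activated for 2 days on plates coated with anti-CD3 and anti-CD28 and were then kept in medium with IL-2 and IL-15. Day 7 was the end point of Effector. The labels used here give no peptide schedule for it. For Acute-2d no GP33 was given, and for Acute-7d it was given at 0.3 µg/mL until day 7 before a rest, with day 19 as the end point of either. For T_Dysf the same peptide was given repeatedly until day 19 together with 5 ng/mL TGF-β1 from day 7. T_Dysf therefore differs from Acute-7d in both continued peptide and TGF-β1, and the share of each cannot be told apart in these 4 groups. Effector differs from the other groups in the day of collection as well, and from Acute-2d and T_Dysf in the sex-linked transcripts given below. Each group has 2 libraries of sorted viable CD8+ cells.

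ATP that leaves a stressed or dying cell is a danger signal, sensed by P2X and P2Y receptors. CD39 (*Entpd1*) cuts ATP and ADP to AMP, and CD73 (*Nt5e*) turns AMP into adenosine, which dampens T cells mainly through the cAMP-raising receptor encoded by *Adora2a*. CD38 consumes extracellular NAD, the same substrate that the ADP-ribosyltransferase encoded by *Art2b* uses to modify and open the P2X7 channel on mouse T cells. CD39, CD73 and CD38 are surface proteins often examined on exhausted CD8 T cells.

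The libraries held an estimated 19381800 to 24856500 reads on genes, so that 3 reads, taken as the detection floor, were worth between 2.59 and 3.35 normalized counts. This floor covers counting error only. The summed level of 5 CD8 T cell markers ran from 61163 to 75150 in Effector, Acute-2d and Acute-7d and from 147704 to 153687 in T_Dysf, where *Cd8a* stood at 35908 and 36163. *Cd4* was between 1.01 and 13.04 in every library. *Foxp3* was between 2.15 and 21.0 in Effector, Acute-2d and T_Dysf, and 49.5 and 45.2 in Acute-7d. The sums of 4 B cell markers (25.7 to 53.2) and 5 myeloid markers (263 to 648) had T_Dysf inside the range of the other groups, at 32.8 to 38.3 and 333 to 364, as did the sums of 3 CD4 and regulatory T cell markers (1057 to 1636) and 3 erythroid markers (21.3 to 42.6). *Lyz2* was the largest part of the myeloid sum. In T_Dysf *Itgam* (49.1 and 51.4) and *Cd14* (13.8 and 16.0) stood below all rested libraries and were not called, and *Csf1r* was called higher than in Effector (limma adjusted p = 0.0406). The 3 NK cell markers, of which *Eomes* is also a CD8 T cell gene, summed to 3560 to 4545 in Acute-7d, 1545 to 1770 in Acute-2d, 1794 to 2454 in Effector and 1073 to 1748 in T_Dysf. *Ncr1*, the most restricted of them to NK cells, was at 30.1 and 105 in Acute-7d and at 2.59 and 1.78 in T_Dysf, which is 3 and 2 reads, and it was called lower there against Acute-7d (adjusted p = 0.0343). *Klrb1c* and *Eomes* were lower without overlap and not called (adjusted p = 0.139 and 0.0634). The NK marker sum moves with each difference of T_Dysf from Acute-7d, and its part in them was not tested. The higher CD8 marker sum of T_Dysf goes along with each T_Dysf difference below, and its part in them was not tested. The 5 markers did not rise evenly. Against Acute-7d *Thy1* and *Cd3e* were 2.35- and 2.11-fold higher and called, and *Cd8a* was 2.10-fold higher and not called. *Cd8b1* and *Cd3d* were 1.46- and 1.30-fold higher, and both stayed under a fold of 2 in all 3 comparisons of T_Dysf. In bulk RNA, fewer cells that express a gene and less RNA per cell cannot be told apart. Both Effector libraries and Acute-7d replicate 1 carry the prefix RESUB in their names, whose meaning the labels do not give. In these 3 libraries *Xist* was between 53.5 and 115 and the Y-linked *Ddx3y* between 1334 and 2161, against 21871 to 30427 and 0 to 2.59 in the other 5, so the sex-linked transcripts move with the prefix. The 3 thus have the pattern of male cells and the other 5 that of female cells. Effector is male by this pattern, Acute-2d and T_Dysf are female, and Acute-7d is male in replicate 1 and female in replicate 2. Differences of Effector from T_Dysf or Acute-2d therefore cannot be told apart from differences of sex or prefix. T_Dysf replicate 1 had 139 genes under 3 reads that had at least 50 reads in each other library, and none of the 9 genes was among them.

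Groups were compared by the moderated test of limma on log2(normalized count + 1) over all 24303 genes in 1 fit of the 8 libraries. A gene was called when its fold change was at least 2 and its Benjamini-Hochberg adjusted p was under 0.05. The series text calls the libraries of a group biological replicates but does not say if they came from separate mice. The 2 Acute-7d libraries have opposite sex-linked transcripts, so their cells came from different mice, and the spread between them includes a difference of sex. For the other groups this is not known, so p-values measure the spread between these libraries. An exact permutation test of 2 against 2 libraries cannot go below a two-sided p of 0.333. Against Acute-7d, 3 of the 9 genes were called in T_Dysf, beside 5.57% of all genes: *Nt5e* and *Cd38* were higher (2.54% of all genes) and *Art2b* was lower (3.03%). Against Acute-2d, 5 of 9 were called (7.35% of all genes), with *Entpd1*, *Nt5e* and *Cd38* higher (3.14%) and *P2rx4* and *Art2b* lower (4.21%). Against Effector, 4 of 9 were called (9.22% of all genes), with *Entpd1*, *Nt5e* and *Cd38* higher (4.47%) and *Slc29a1* lower (4.75%). These comparisons share the T_Dysf libraries. Of the 9 genes, 8 have a mean of at least 50, a level that many of the 24303 genes do not reach. In fits of only the 12028 genes at that level, 1477, 1697 and 2218 genes were called in the same order. Those are larger shares than over all genes. The median log2 difference over the 9 genes was -0.32, -0.36 and -0.14 in the same order, against 0 over all genes. Without *P2rx7*, which was near the detection floor, the median over 8 genes was 0.16, -0.18 and -0.03, so its sign against Acute-7d depends on that gene. The libraries of T_Dysf did not overlap those of the other group in 8, 7 and 7 of the 9 genes, beside 54.8%, 54.3% and 56.4% of all genes. These shares cover all 24303 genes and were not taken over those with a mean of at least 50.

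**Figure D1:**
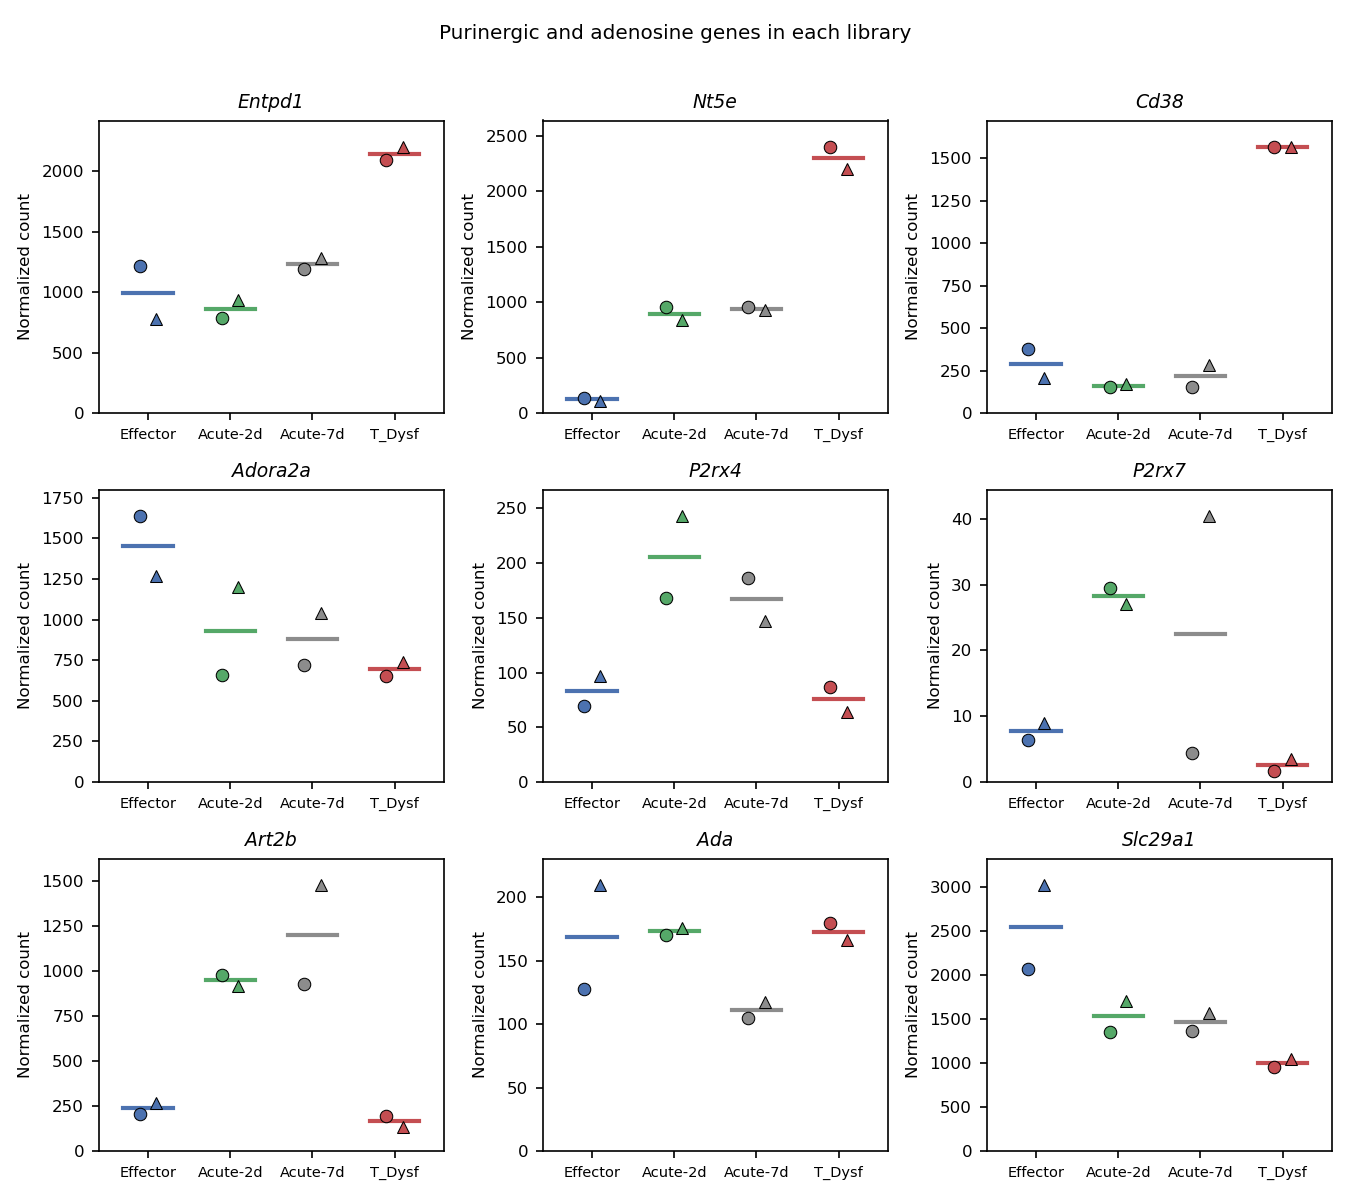
Normalized count (linear axis from 0) of each of the 9 genes in each library. Circles are replicate 1, triangles replicate 2, and bars the group mean of 2 libraries. *Entpd1*, *Nt5e* and *Cd38* were highest in both T_Dysf libraries, and *Art2b* was between 919.8 and 1479 in the rested groups and at or under 266 in Effector and T_Dysf.

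Acute-7d and Acute-2d, which differ in whether GP33 was given before the rest, had none of the 9 genes called by limma, beside 0.169% of all genes, and none had an unadjusted p under 0.05 together with a fold of 2. Limma-voom also called none. The closest were *Ada* (log2 difference -0.64, 95% interval -1.28 to 7.3e-05) and *Entpd1* (0.53, -0.06 to 1.13). Effector differed from Acute-7d in 2 of 9 genes (8.06% of all genes) and from Acute-2d in 2 of 9 (8.78% of all genes), in each case *Nt5e* and *Art2b*, both lower in Effector (3.88% and 4.48% of all genes were lower). Over all 4 groups at once, the F test called *Entpd1*, *Nt5e*, *Cd38* and *Art2b*, beside 13.9% of all genes, with Benjamini-Hochberg adjusted p from limma of 0.0468, 0.00130, 0.0208 and 0.0131. *Slc29a1* (0.0519) and *P2rx4* (0.0571) fell just outside that threshold.

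**Figure D2:**
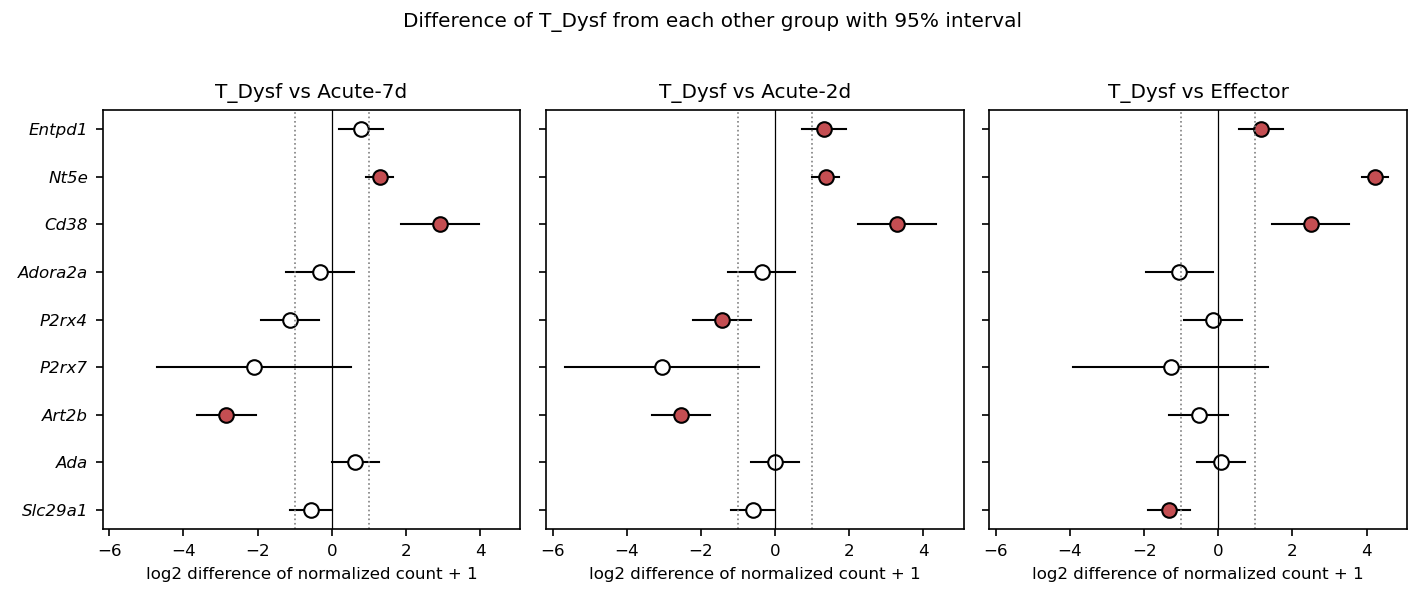
Log2 difference of T_Dysf from Acute-7d, Acute-2d and Effector for each of the 9 genes, with 95% intervals from limma. Filled points were called, open points were not, and dotted lines mark a fold of 2. *Nt5e* and *Cd38* lie right of the dotted line in all 3 panels, while *Art2b* lies left of it against the rested groups only.

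*Entpd1* encodes CD39, the enzyme that removes ATP and ADP, and lies on chr19:40612366-40741602 (plus strand, GRCm38). Its normalized count was 1219 and 774 in Effector, 784 and 932 in Acute-2d, 1192 and 1281 in Acute-7d, and 2091 and 2200 in T_Dysf. Both T_Dysf libraries stood above the other 6. *Entpd1* was 1.33 higher on the log2 scale than in Acute-2d (SE 0.23, adjusted p = 0.0289) and 1.14 higher than in Effector (SE 0.23, adjusted p = 0.0361). Against Acute-7d the log2 difference was 0.79 (95% interval 0.20 to 1.39) with a limma adjusted p of 0.110, below the fold of 2. Both calls were close to the threshold. Without 1 library the Acute-2d call was lost for either library of Acute-2d, Acute-7d or T_Dysf (adjusted p up to 0.128, log2 difference 1.2 to 1.45). The Effector call was lost for each library but Effector replicate 1 (adjusted p up to 0.142, log2 difference 0.81 to 1.47). With the replicate number as a block the adjusted p were 0.0636 and 0.0712, and with a term for the prefix RESUB they were 0.0663 and 0.325, with log2 differences of 1.33 and 1.04. The Effector call was lost as well in a fit of those groups alone (0.147). Only Acute-7d has libraries with and without RESUB, so here and below the term for RESUB rests on the difference between its 2 libraries. The pseudogene *Gm8783*, which sits inside *Entpd1* on the same strand, had 11.1 to 125 normalized counts.

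*Nt5e* encodes CD73, the enzyme that makes adenosine from AMP, and lies on chr9:88327197-88372092 (plus strand). The counts were 138 and 108 in Effector, 955 and 837 in Acute-2d, 955 and 927 in Acute-7d, and 2399 and 2204 in T_Dysf. The order was Effector, then the rested groups, which overlapped each other, then T_Dysf. In T_Dysf *Nt5e* was 18.7-fold above Effector (log2 difference 4.22, SE 0.14, adjusted p = 0.000593). It was 2.44-fold above Acute-7d (1.29, SE 0.14, adjusted p = 0.0117) and 2.57-fold above Acute-2d (1.36, SE 0.14, adjusted p = 0.00805). Effector was lower than both rested groups, by a log2 difference of -2.93 against Acute-7d (adjusted p = 0.00321) and -2.86 against Acute-2d (adjusted p = 0.00295). The Acute-7d and Acute-2d levels differed by 0.07 (95% interval -0.28 to 0.43). The call against Acute-7d was lost without either Acute-7d library or T_Dysf replicate 1 (adjusted p up to 0.0763, log2 difference 1.23 to 1.35) and with the term for RESUB (0.0677). Leaving out T_Dysf replicate 1 ended the call against Acute-2d (0.0568). The call of T_Dysf against Effector held in each setting tried, and those of Effector against Acute-7d and Acute-2d were lost in fits of those groups alone (0.0570 and 0.0603).

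The ratio of *Entpd1* to *Nt5e* normalized counts was 8.83 and 7.15 in the Effector libraries. It was 0.82 and 1.11 in Acute-2d, 1.25 and 1.38 in Acute-7d, and 0.871 and 0.998 in T_Dysf. Per kilobase of exon, *Entpd1* was at 384 ± 13.9 (SD, n = 2) normalized counts in T_Dysf and *Nt5e* at 268 ± 16.1, whereas in Effector they were at 179 ± 56.3 and 14.3 ± 2.44.

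Of 14 further ectonucleotidase genes, 12 were in the table. The median log2 difference of those 12 between T_Dysf and Acute-7d was 0.01. *Acpp*, a transmembrane acid phosphatase that can also make adenosine from AMP, was lowest in Effector and highest in T_Dysf, as *Nt5e* was. It was at 126 and 102 in Effector, 486 and 621 in Acute-2d, 303 and 365 in Acute-7d, and 1250 and 1139 in T_Dysf. *Acpp* was the 1 list gene called against Acute-7d (log2 difference 1.84, SE 0.18, adjusted p = 0.00965), and it was also higher than in Acute-2d (1.12, adjusted p = 0.0242) and Effector (3.38, adjusted p = 0.00220). Its calls against Acute-7d and Acute-2d were both lost without T_Dysf replicate 1 (log2 difference 1.71 to 1.97 and 0.94 to 1.30 over the 8 libraries left out in turn). The first was also lost without Acute-7d replicate 1, and the second without Acute-2d replicate 1 or T_Dysf replicate 2. *Enpp4*, an ecto-phosphodiesterase, was called higher in T_Dysf than in Effector (1.08, adjusted p = 0.0342) and not against the rested groups, with 337 and 309 counts in Effector and 632 and 736 in T_Dysf. *Acpp* and *Enpp4* were also lower in Effector than in both rested groups. The *Enpp4* call against Effector was lost without either library of Effector, Acute-2d or T_Dysf (adjusted p up to 0.132, log2 difference 0.97 to 1.19). Effector against Acute-7d was lost for *Acpp* without Effector replicate 2 or either Acute-7d library (up to 0.0619), and for *Enpp4* without any library but Acute-7d replicate 1 (up to 0.142). Against Acute-2d, *Acpp* was called without any 1 library but not with the term for RESUB (0.0940) or in a fit of those groups alone (0.0839), and *Enpp4* was lost without either library of Effector, Acute-2d or T_Dysf (up to 0.129). The term for RESUB also ended the *Acpp* calls of T_Dysf and Effector against Acute-7d (0.0558 and 0.0573), and the replicate block its call of T_Dysf against Acute-2d (0.0564). With that term no *Enpp4* call remained (up to 0.269), and its log2 difference of T_Dysf from Effector was 0.48. The *Acpp* call of T_Dysf against Effector held in each setting tried.

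*Cd38* encodes the NAD-consuming ectoenzyme CD38 and lies on chr5:43868553-43912375 (plus strand). Its counts were 378 and 204 in Effector, 152 and 168 in Acute-2d, 153 and 281 in Acute-7d, and 1566 and 1567 in T_Dysf. The T_Dysf libraries were almost equal, and the other 6 libraries stayed at or under 378. *Cd38* was 7.53-fold above Acute-7d (log2 difference 2.91, SE 0.40, adjusted p = 0.0210), 9.75-fold above Acute-2d (3.28, SE 0.40, adjusted p = 0.0126) and 5.63-fold above Effector (2.49, SE 0.40, adjusted p = 0.0217). Leaving out either library of T_Dysf or of Acute-2d, or Acute-7d replicate 1, ended the call against Acute-7d (adjusted p up to 0.114, log2 difference 2.48 to 3.35). The Acute-2d call was lost without T_Dysf replicate 1 or either Acute-2d library (up to 0.0781, 3.21 to 3.36). The Effector call was lost without Effector replicate 2 or either library of Acute-2d or T_Dysf (up to 0.108, 2.05 to 2.94). With the replicate number as a block the Acute-7d comparison had an adjusted p of 0.0537. With the term for RESUB the log2 difference from Effector was 1.62 (0.261) and that from Acute-7d 2.48 (0.0827). In fits of those groups alone both were lost as well (0.0875 and 0.0630). *Gm16015*, an antisense RNA within *Cd38*, had 16.4 counts in T_Dysf replicate 1 and at most 2.01 elsewhere, and the sources used here do not say if counting used strand.

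*Bst1*, the neighbouring paralog of *Cd38* that lies 24.6 kb before it, had another order. Its counts were 266 and 162 in Effector, 60.0 and 36.7 in Acute-2d, 24.5 and 30.3 in Acute-7d, and 48.3 and 43.6 in T_Dysf. It was higher in Effector than in Acute-7d (log2 difference 2.88, adjusted p = 0.0179), Acute-2d (2.12, adjusted p = 0.0275) and T_Dysf (T_Dysf minus Effector -2.15, adjusted p = 0.0247). *Nampt*, the intracellular enzyme that makes the NAD precursor NMN, was lower in T_Dysf, at 711 and 694, than in Acute-2d (2817 and 1903, log2 difference -1.72, adjusted p = 0.0252) and Effector (1476 and 2345, -1.40, adjusted p = 0.0361). Among the 10 genes listed for NAD ectoenzymes and related functions, 8 were in the table and none was called between T_Dysf and Acute-7d, where the log2 difference of *Nampt* was -1.10 (adjusted p = 0.0860). The *Nampt* calls were lost without either library of Acute-7d or T_Dysf, and also without Acute-2d replicate 1 or Effector replicate 2, respectively (adjusted p up to 0.120 and 0.147, log2 difference -2.0 to -1.44 and -1.74 to -1.07). For *Bst1* the T_Dysf call was lost without Effector replicate 1 or either library of Acute-7d or T_Dysf (up to 0.107, -2.51 to -1.79). The call of Effector against Acute-2d was lost without any 1 of the 8 libraries (up to 0.0922, 1.76 to 2.48), and that against Acute-7d without either library of Acute-7d or T_Dysf (up to 0.0891, 2.52 to 3.24). All 3 *Bst1* calls were lost with the term for RESUB (up to 0.200) and in fits of those groups alone (up to 0.135). Both *Nampt* calls were lost with these (up to 0.282) and with the replicate block (0.0592 and 0.0727).

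*Art2b* encodes a GPI-anchored ADP-ribosyltransferase of the T cell surface and lies on chr7:101576970-101585600 (minus strand). It had 208 and 266 counts in Effector, 980.5 and 919.8 in Acute-2d, 929 and 1479 in Acute-7d, and 198 and 133 in T_Dysf. The rested libraries were all above the other 4, and Effector and T_Dysf did not overlap, with a log2 difference of -0.53 (95% interval -1.32 to 0.26). *Art2b* was 7.18-fold lower in T_Dysf than in Acute-7d (log2 difference -2.84, SE 0.31, adjusted p = 0.0119) and 5.82-fold lower than in Acute-2d (-2.54, SE 0.31, adjusted p = 0.0122). Effector was lower than Acute-7d by -2.31 (adjusted p = 0.0187) and than Acute-2d by -2.01 (adjusted p = 0.0213). The call of T_Dysf against Acute-7d held without any 1 of the 8 libraries (adjusted p up to 0.0440) and was lost when those groups alone were fitted (0.0647). Against Acute-2d it was lost without either Acute-2d library (up to 0.0685, log2 difference -2.82 to -2.26). The Effector calls were lost without Effector replicate 2 or either library of the rested group compared, and against Acute-2d also without Effector replicate 1 (up to 0.0555 and 0.0968, with log2 differences from -2.65 to -1.98 and from -2.18 to -1.83). With the term for RESUB, which covers both Effector libraries, they were lost too, with log2 differences of -1.98 from Acute-7d (0.0555) and -1.34 from Acute-2d (0.224), and they were lost in fits of those groups alone (0.111 and 0.0766). *Art2b* shares 142 of its 2826 transcript windows of 50 bases (5.03%) with its neighbour *Art2a-ps*, which the table lists as *Art2a*. That gene had 19.0 and 31.3 counts in Acute-7d and at most 8.4 in the other groups.

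In T_Dysf *Art2b* was called lower against both rested groups, *P2rx4* against Acute-2d and *Slc29a1* against Effector. Of all genes, 3.03%, 4.21% and 4.75% were called lower against Acute-7d, Acute-2d and Effector. No comparison called all 3 of *Art2b*, *P2rx4* and *Slc29a1*. *Slc29a1* was highest in Effector, where *Art2b* and *P2rx4* stood below the rested groups. The 250 bases before the RefSeq start (GRCm38.p6) of these 3 genes are given here because of those calls. The windows are chr7:101581162-101581411 (minus strand), chr5:122707294-122707543 (plus strand) and chr17:45599619-45599868 (minus strand, the outermost of 8 listed starts). Only the *Art2b* window touches an annotated exon, by 18 bases, and it lies within an intron of a longer GENCODE transcript. Capitals mark matches on either strand to the AP-1 motif TGANTCA, the CRE core TGACG, the SMAD element CAGAC or the NFAT core GGAAA.
Art2b: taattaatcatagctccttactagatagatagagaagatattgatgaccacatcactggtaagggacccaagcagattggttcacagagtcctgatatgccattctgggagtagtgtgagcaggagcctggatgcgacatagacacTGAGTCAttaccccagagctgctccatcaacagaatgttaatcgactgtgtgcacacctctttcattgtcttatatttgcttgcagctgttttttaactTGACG
P2rx4: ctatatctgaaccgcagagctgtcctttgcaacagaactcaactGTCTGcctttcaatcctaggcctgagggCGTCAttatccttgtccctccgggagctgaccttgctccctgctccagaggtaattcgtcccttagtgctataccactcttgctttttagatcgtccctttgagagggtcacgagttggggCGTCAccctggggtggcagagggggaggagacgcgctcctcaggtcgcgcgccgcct
Slc29a1: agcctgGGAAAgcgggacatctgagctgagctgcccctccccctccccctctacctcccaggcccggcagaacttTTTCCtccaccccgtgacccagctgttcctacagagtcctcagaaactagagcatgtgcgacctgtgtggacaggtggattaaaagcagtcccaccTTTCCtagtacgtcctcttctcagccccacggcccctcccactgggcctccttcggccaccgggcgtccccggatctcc

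The *Art2b* window held 1 AP-1 match and 1 CRE core, the *P2rx4* window 1 SMAD element and 2 CRE cores, and the *Slc29a1* window 3 NFAT cores. The search ran from 250 bases before to 50 after the start, and each match fell in the bases shown. No motif was common to all 3 windows. Of 32851 RefSeq windows of that length in the mouse table, 6.75% held TGANTCA, 17.8% TGACG, 42.2% CAGAC and 55.6% GGAAA. The full CRE TGACGTCA (1.55% of windows), the SMAD palindrome GTCTAGAC (0.167%) and the NR4A element AAAGGTCA (1.34%) had no match in them. A match is a description of these letters and not a binding site. The windows of *Nt5e* and *Cd38*, called higher in T_Dysf in all 3 comparisons, lie entirely within the first exon that GENCODE annotates, so they are not shown. They held 2 CAGAC matches, and 1 CAGAC and 1 GGAAA match. Both windows of *Entpd1*, called higher in T_Dysf than in Acute-2d and Effector, held 1 TGACG match each. The outermost *P2rx7* window held 1 TGANTCA match.

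*P2rx4* and *P2rx7* encode ATP-gated cation channels and lie 16.1 kb apart on chromosome 5, at chr5:122707544-122729738 and chr5:122643911-122691432 (plus strand). *P2rx4* had 69.4 and 97.3 counts in Effector, 169 and 243 in Acute-2d, 186 and 147 in Acute-7d, and 87.2 and 64.1 in T_Dysf. Its T_Dysf and Effector libraries overlapped each other and stood below all 4 rested libraries. *P2rx4* was 2.68-fold lower in T_Dysf than in Acute-2d (log2 difference -1.42, SE 0.30, adjusted p = 0.0483). This call was lost without any 1 of the 8 libraries (adjusted p 0.0580 to 0.161, log2 difference -1.69 to -1.16). It was also lost with quantile normalization, in a fit of those groups alone, with the block and with the term for RESUB. Against Acute-7d the log2 difference was -1.14 (95% interval -1.92 to -0.36, adjusted p = 0.0924), which passed the threshold when genes of low level were left out (adjusted p 0.0406 and 0.0411, and 0.0429 with limma-voom on the genes left).

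*P2rx7* was near the detection floor. It had 6.4 and 9.0 counts in Effector, 29.5 and 27.0 in Acute-2d, 4.5 and 40.4 in Acute-7d, and 1.7 and 3.6 in T_Dysf, the last being 2 and 4 reads. Both T_Dysf libraries were the lowest of the 8, and the Acute-7d libraries were the farthest apart. The log2 difference of T_Dysf from Acute-2d was -3.05 (95% interval -5.67 to -0.43), with a limma adjusted p of 0.134, and no comparison of *P2rx7* was called. Against Acute-2d it was called without either Acute-7d library, or with the term for RESUB (adjusted p = 0.0390).

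None of the other 5 P2X genes had a mean of 50, and their summed level was between 9.09 and 37.9 in the 8 libraries. *P2rx6* had no read in T_Dysf or Effector and 2 to 7 reads in the rested libraries, and *P2rx5* had 9 and 12 reads in T_Dysf and at most 3 elsewhere, so no fold change is given for them. Of the 9 P2Y genes on the list, 4 had a mean of at least 50. *P2ry14*, a receptor for UDP-sugars, was higher in T_Dysf, with 691 and 686 counts, than in Acute-7d (329 and 276, log2 difference 1.19, adjusted p = 0.0383) and Acute-2d (288 and 234, 1.40, adjusted p = 0.0213). *P2ry10*, a lysophosphatidylserine receptor despite its name, was lower in T_Dysf (1112 and 1061) than in Acute-2d (2712 and 2261, -1.19, adjusted p = 0.0108). It was lower in Effector than in Acute-2d as well (-1.10, adjusted p = 0.0148). *P2ry10b* was lower in T_Dysf than in Effector (-1.06, adjusted p = 0.0495). The *P2ry14* calls were lost without either library of Acute-2d or T_Dysf, and the first also without either Acute-7d library (adjusted p up to 0.164 and 0.111, log2 difference 1.06 to 1.32 and 1.26 to 1.55). Those of *P2ry10* were lost without Acute-2d replicate 1, and without T_Dysf replicate 1 or Effector replicate 1, respectively (up to 0.0655 and 0.0620), and that of *P2ry10b* without either library of Effector, Acute-2d or T_Dysf (up to 0.197). The *P2ry14* call against Acute-7d was also lost with 75th percentile scaling, quantile normalization and the term for RESUB (0.0740, 0.0548 and 0.123), the *P2ry10* call of Effector with that term (0.173) and in a fit of those groups alone (0.106), and the *P2ry10b* call in 7 of 14 other settings. Of 5 genes tied to ATP release, *Slc17a9*, which loads ATP into vesicles, was the 1 gene called. It had 360 and 332 counts in T_Dysf against 922 and 814 in Acute-7d (-1.32, SE 0.10, adjusted p = 0.00488) and 824 and 901 in Acute-2d (-1.31, adjusted p = 0.00400), and both calls held in each setting tried. *Panx1*, the ATP channel pannexin-1, was between 947 and 1297 in all 8 libraries.

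*Adora2a* encodes the main adenosine receptor of T cells and lies on chr10:75316877-75334784 (plus strand). Its counts were 1637 and 1265 in Effector, 658 and 1203 in Acute-2d, 723 and 1039 in Acute-7d, and 651 and 738 in T_Dysf. The Effector libraries were the highest, and T_Dysf overlapped both rested groups. The log2 difference of T_Dysf from Acute-7d was -0.32 (95% interval -1.23 to 0.59), from Acute-2d -0.36 (-1.27 to 0.55) and from Effector -1.05 (-1.96 to -0.14), and none was called (adjusted p = 0.635, 0.573 and 0.117). The Effector difference passed when only genes with a mean of at least 50 were tested (adjusted p = 0.0315).

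The other adenosine receptors had a different order. *Adora3*, a receptor that lowers cAMP, had 53.9 and 9.7 counts in Effector, 95.1 and 127 in Acute-2d, 82.6 and 119 in Acute-7d, and 2495 and 2559 in T_Dysf. Both T_Dysf libraries were far above the other 6. *Adora3* was higher in T_Dysf than in Acute-7d by 4.66 on the log2 scale (SE 0.79, adjusted p = 0.0334), than in Acute-2d by 4.51 (adjusted p = 0.0295) and than in Effector by 6.71 (adjusted p = 0.0111). Leaving out any library of Acute-2d, Acute-7d or T_Dysf ended the calls against the rested groups (adjusted p up to 0.157 and 0.135) while the log2 differences stayed between 4.30 and 4.92. The log2 difference from Effector, whose libraries were unlike, ran from 5.52 to 7.89, and that call was lost without T_Dysf replicate 1 (0.0683). With the term for RESUB all 3 *Adora3* calls were lost (0.157, 0.0662 and 0.161), with the replicate block those against Acute-7d and Acute-2d (0.0680 and 0.0617), and in a fit of those groups alone that against Effector (0.0864). *Tmigd3* overlaps *Adora3* on the same strand and had 17.4 and 8.01 counts in T_Dysf and at most 1.79 elsewhere. *Adora2b*, the lower-affinity cAMP-raising receptor, had 58.5 and 45.1 counts in Effector, 23.2 and 6.5 in Acute-2d, 33.5 and 23.2 in Acute-7d, and 139 and 136 in T_Dysf. It was called against Acute-2d (3.37, SE 0.61, adjusted p = 0.0320) but not against Acute-7d (2.26, 95% interval 0.68 to 3.84, adjusted p = 0.0955) or Effector (1.40, -0.18 to 2.98). That call was lost without either library of Effector, Acute-7d or T_Dysf (log2 difference 2.52 to 4.21, adjusted p up to 0.144), with the term for RESUB (0.0688) and in a fit of those groups alone (0.119). *Adora1* had at most 1.08 counts in any library.

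**Figure D3:**
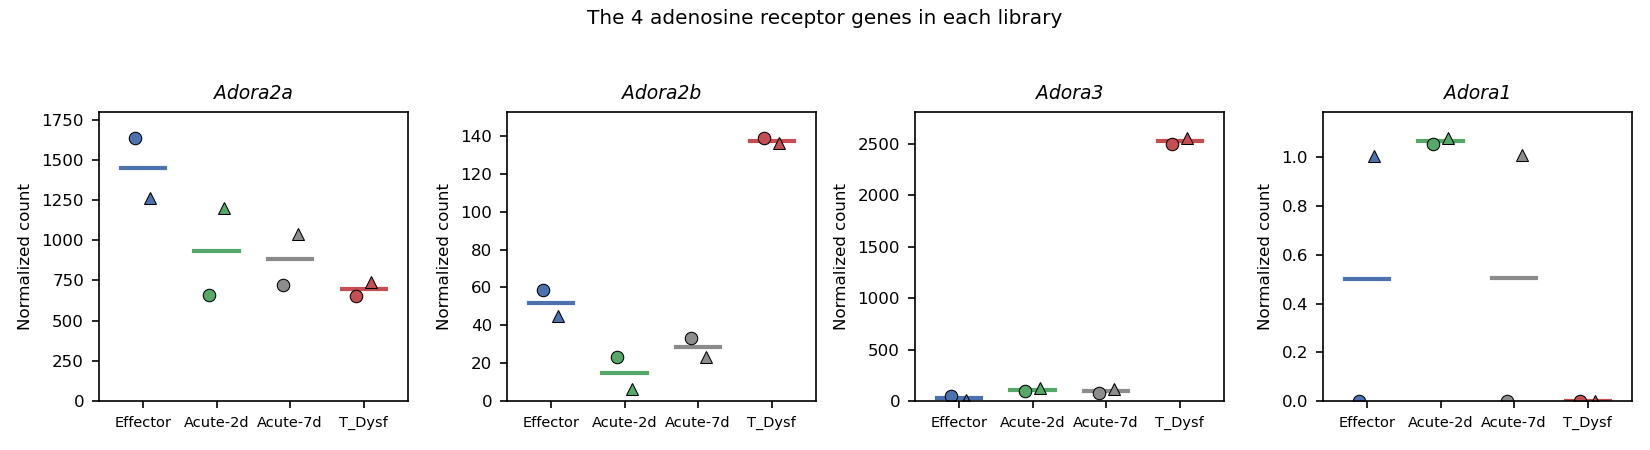
Normalized count (linear axis from 0, a different scale in each panel) of the 4 adenosine receptor genes in each library, with circles for replicate 1, triangles for replicate 2 and bars for the mean of 2. *Adora2b* and *Adora3* were highest in T_Dysf, *Adora2a* was highest in Effector, and *Adora1* was at or under 1.08.

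Downstream of these receptors, the 17 listed genes of the cAMP arm were all measured, and 1 was called higher and 3 lower in T_Dysf against each rested group, beside 5.57% of all genes called against Acute-7d and 7.35% against Acute-2d. *Adcy6*, an adenylyl cyclase, had 62.0 and 56.0 counts in T_Dysf, 215 and 221 in Acute-7d, 710 and 661 in Acute-2d, and 247 and 331 in Effector. Its log2 difference was -1.87 from Acute-7d (SE 0.16, adjusted p = 0.00679), -3.52 from Acute-2d (adjusted p = 0.00136) and -2.26 from Effector (adjusted p = 0.00392). The calls against the rested groups held in each setting tried. The Effector call held without any 1 library and was lost with the term for RESUB (0.0721) and in a fit of those groups alone (0.0575). The cAMP phosphodiesterases went in both directions. *Pde4a* was higher in T_Dysf (769 and 850.5 against 135 and 193 in Acute-7d, 2.32, adjusted p = 0.0397), whereas *Pde4b* (463 and 445 against 1691 and 1209, -1.65, adjusted p = 0.0255) and *Pde4d* (672 and 599 against 1630 and 1245, -1.17, adjusted p = 0.0414) were lower. The same 3 genes were called in the same directions against Acute-2d, at 2.78, -1.63 and -1.24. *Pde4b* (673 and 641) and *Pde4d* (423 and 587) were also called lower in Effector than in Acute-7d (-1.12 and -1.51) and Acute-2d (-1.10 and -1.59). Those 4 Effector calls were lost with the term for RESUB (up to 0.159) and in fits of those groups alone (up to 0.149), that of *Pde4b* against Acute-2d without any 1 of the 8 libraries and against Acute-7d without any library of Effector, Acute-7d or T_Dysf (up to 0.167 and 0.178), and those of *Pde4d* without either library of the rested group compared, and against Acute-7d also without either T_Dysf library (up to 0.0929). Against Acute-7d these calls were lost without either library of Acute-7d or T_Dysf, and those of *Pde4a* and *Pde4d* also without either Acute-2d library (adjusted p up to 0.175, 0.124 and 0.166). Against Acute-2d they were lost without either T_Dysf library or Acute-2d replicate 1, and those of *Pde4a* and *Pde4d* also without Acute-2d replicate 2 (up to 0.105, 0.107 and 0.131). Against Acute-7d all 3 were lost with the term for RESUB (0.175, 0.107 and 0.166), *Pde4a* and *Pde4d* also with the replicate block (0.0816 and 0.0820), and *Pde4b* and *Pde4d* in a fit of those groups alone (0.0621 and 0.0805). Against Acute-2d the block ended the calls of *Pde4a* and *Pde4d* (0.0515 and 0.0629), and the fit of those groups alone that of *Pde4b* (0.0735). *Prkacb*, a catalytic subunit of protein kinase A, was higher in T_Dysf than in Effector (12174 and 12217 against 3966 and 4100, 1.60, SE 0.05, adjusted p = 0.000579).

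**Figure D4:**
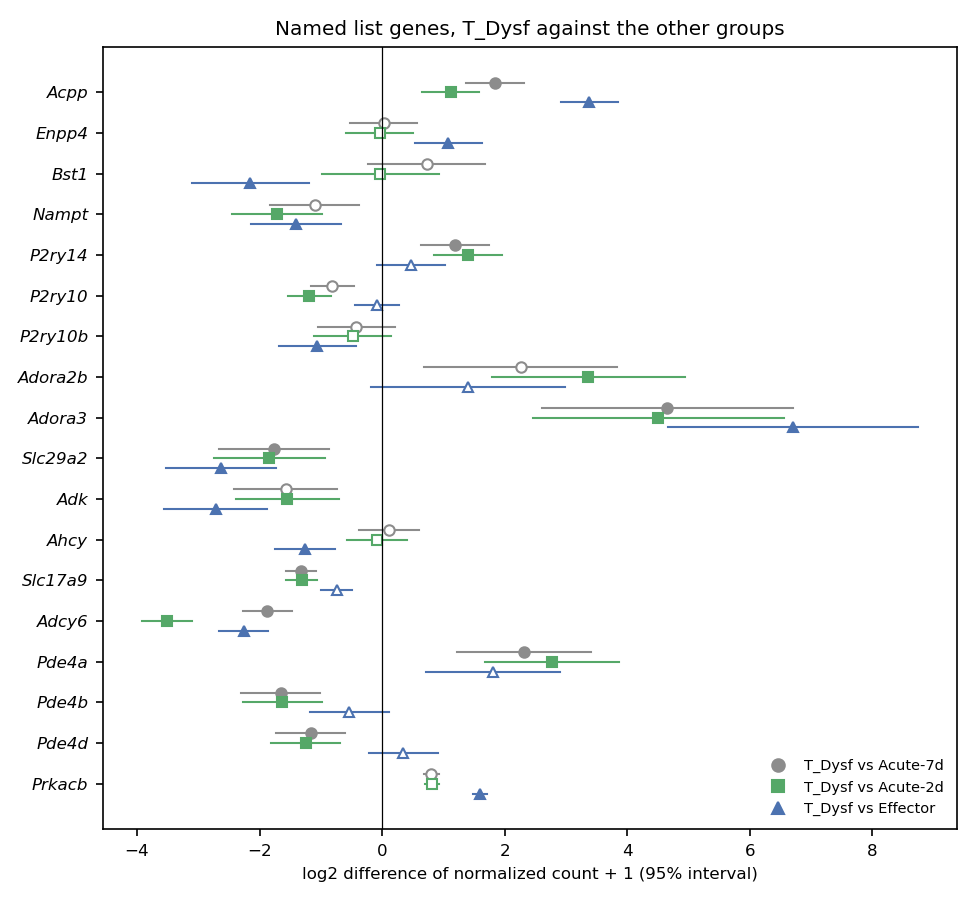
Log2 difference of T_Dysf from Acute-7d (circles), Acute-2d (squares) and Effector (triangles) for 18 named pathway genes, with 95% intervals from limma. Filled symbols were called and open symbols were not. *Adora3*, *Acpp*, *Adcy6* and *Slc29a2* have filled symbols in all 3 comparisons, and *Pde4a* lies opposite to *Pde4b* and *Pde4d* against the rested groups.

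The products of *Ada* and *Slc29a1* act on adenosine. *Ada*, which encodes adenosine deaminase, lies on chr2:163726584-163750239 (minus strand). It had 128 and 210 counts in Effector, 171 and 176 in Acute-2d, 105 and 117 in Acute-7d, and 180 and 166 in T_Dysf. Acute-7d was lowest and the other groups overlapped. No comparison was called. The log2 difference of T_Dysf from Acute-7d was 0.64 (95% interval -0.004 to 1.28, adjusted p = 0.193), and its difference from Acute-2d was -0.004 (-0.64 to 0.64).

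*Slc29a1* encodes the equilibrative nucleoside transporter ENT1, through which adenosine enters cells, and lies on chr17:45585200-45599606 (minus strand). Its counts were 2070 and 3019 in Effector, 1347 and 1709 in Acute-2d, 1365 and 1571 in Acute-7d, and 950 and 1043 in T_Dysf. Effector was the highest group and T_Dysf the lowest, with no overlap of either with the rested groups, which overlapped each other. *Slc29a1* was 2.51-fold lower in T_Dysf than in Effector (log2 difference -1.33, SE 0.22, adjusted p = 0.0231). The differences from Acute-7d (-0.56, 95% interval -1.13 to 0.02) and Acute-2d (-0.61, -1.18 to -0.03) were not called. Leaving out Effector replicate 2 or either library of Acute-7d or T_Dysf ended the Effector call (adjusted p up to 0.118, log2 difference -1.60 to -1.06), as did the term for RESUB (0.187) and a fit of those groups alone (0.104). An antisense gene within it, *Gm17080*, had 6.32 to 27.5 counts.

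*Slc29a2*, the paralog that encodes ENT2, was lower in T_Dysf in all 3 comparisons. It had 65.8 and 92.3 counts in Effector, 36.9 and 54.0 in Acute-2d, 49.1 and 36.4 in Acute-7d, and 12.9 and 10.7 in T_Dysf. The log2 difference was -1.76 from Acute-7d (adjusted p = 0.0474), -1.84 from Acute-2d (adjusted p = 0.0363) and -2.63 from Effector (adjusted p = 0.0139). The calls against the rested groups were lost without any 1 of the 8 libraries (adjusted p up to 0.201, log2 difference -2.11 to -1.55), and the Effector call without Effector replicate 2 or T_Dysf replicate 1 (up to 0.0668). *Slc29a3*, the intracellular transporter ENT3, was between 561 and 716 in all 8 libraries. Of 15 genes of adenosine and AMP metabolism, 13 were in the table, and none was called between T_Dysf and Acute-7d. *Adk*, the kinase that turns adenosine back into AMP, was lower in T_Dysf (56.1 and 39.1) than in Effector (244 and 403, -2.72, adjusted p = 0.0112) and Acute-2d (154 and 125, -1.55, adjusted p = 0.0470). *Ahcy*, which frees adenosine from S-adenosylhomocysteine, was lower in T_Dysf than in Effector (-1.26, adjusted p = 0.0180) and higher in Effector than in Acute-7d and Acute-2d (1.37 and 1.18, adjusted p up to 0.0233). The *Adk* call against Effector was lost without T_Dysf replicate 1 (0.0511), and that against Acute-2d without either library of Acute-2d, Acute-7d or T_Dysf (up to 0.183). The *Ahcy* call of T_Dysf was lost without Effector replicate 2 or T_Dysf replicate 1 (up to 0.0793), and its Effector calls without Effector replicate 2 or either library of the rested group compared, and against Acute-2d also without Effector replicate 1 (up to 0.103). The Effector calls of *Slc29a2*, *Adk* and *Ahcy* were lost with the term for RESUB (up to 0.198) and in fits of those groups alone (up to 0.105). The *Adk* call against Acute-2d was kept in 9 of 14 other settings, and those of *Slc29a2* against Acute-7d and Acute-2d in 8 and 9 of 13, with the replicate block, the term for RESUB, quantile normalization and the fit of those groups alone among the settings that ended all 3. In all, 77 of the 84 pathway genes listed beside the 9 were in the table, and 4 were called higher and 6 lower in T_Dysf than in Acute-7d, beside 2.54% and 3.03% of all genes. Among the 48 with a mean of at least 50 the counts were 4 and 4. In a fit of only the 12028 genes at that level, 1477 were called in either direction, a larger share than over all genes.

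The levels of the 9 genes can be set side by side per kilobase of exon. In T_Dysf *Cd38* (403 ± 0.14 normalized counts per kb, SD, n = 2) and *Entpd1* (384 ± 13.9) stood first, with libraries that did not overlap. They were followed by *Nt5e* (268 ± 16.1), *Slc29a1* (249 ± 16.5) and *Adora2a* (227 ± 19.9), of which each overlapped its neighbour in the order. *Ada* (86.4 ± 4.65) and *Art2b* (58.5 ± 16.0) came next, and *P2rx4* (10.8 ± 2.33) and *P2rx7* (0.44 ± 0.22) were last. In Acute-7d *Art2b* (426 ± 138) and *Slc29a1* (366 ± 36.3) were first and overlapped, *Adora2a* (288 ± 73.0) overlapped *Art2b* as well, and *Cd38* was at 55.7 ± 23.2. In Effector *Slc29a1* (635 ± 167) and *Adora2a* (474 ± 85.8) were first and overlapped, and *Nt5e* was at 14.3 ± 2.44. The gene lengths are the joined exons of GENCODE transcripts, which need not be the lengths the authors counted over.

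**Figure D5:**
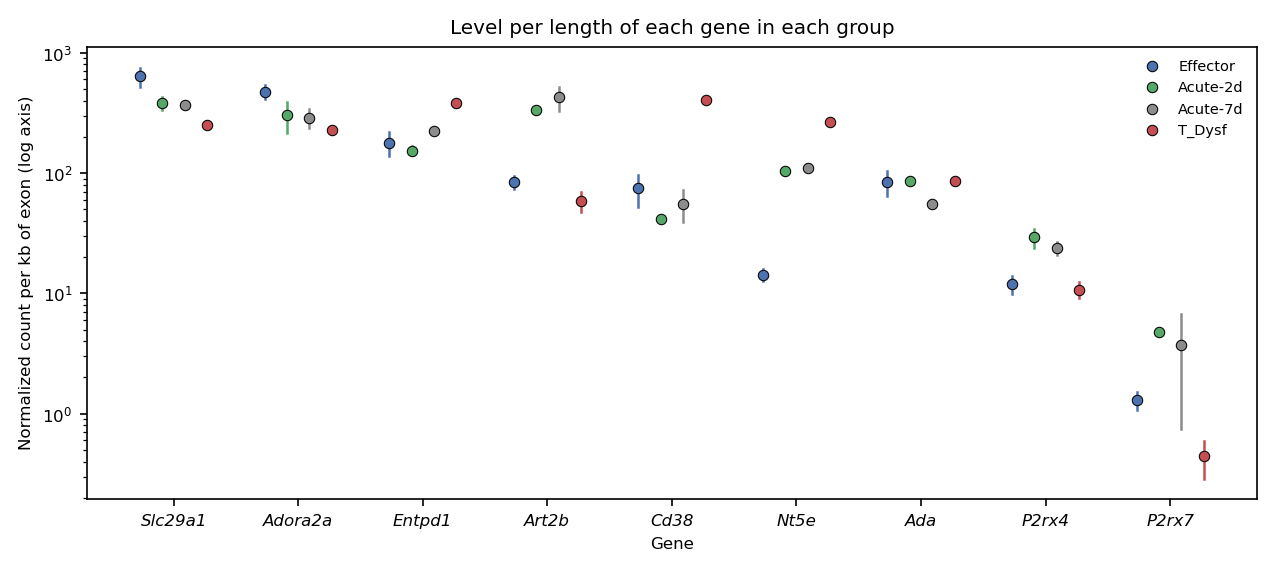
Normalized count per kilobase of exon (log axis) of the 9 genes, ordered by their mean. Points are group means of 2 libraries and lines run from the lower to the higher library. *Cd38*, *Entpd1* and *Nt5e* have T_Dysf on top, *Slc29a1* and *Adora2a* have Effector on top, and *P2rx7* is below 7 throughout.

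Among 12028 genes with a mean of at least 50, the profile most like each gene over the 8 libraries was found from the root mean square difference of centred log2 values. This is a description over 8 libraries in 4 groups. *Entpd1* was nearest to *Cdc42bpg* (0.113), the lysosomal protease gene *Ctsd* (0.115) and *Golm1* (0.128). *Cd38* was nearest to *Exoc3l* (0.269), the signalling adaptor gene *Tyrobp* (0.278) and the receptor gene *Cd244a* (0.284), and the last had a mean of 4681 in T_Dysf against 617 in Acute-7d. *Nt5e* had *Echdc2* (0.374), *Prkcz* (0.403) and *Fam217b* (0.407) as its nearest genes, and *Art2b* had *Fcgrt* (0.376), *Hcn3* (0.392) and *Tnfsf8* (0.393). *Slc29a1* had the closest match of all, with *Wdr90* (0.0946), *Impdh2-ps* (0.0984) and *Ruvbl1* (0.105). For *Adora2a* they were *Fut7* (0.122), *AI467606* (0.127) and *BC051226* (0.158), for *P2rx4* *H2-T10* (0.164), *Atg16l2* (0.170) and *Map3k3* (0.214), and for *Ada* *N4bp2* (0.159), *Ston2* (0.171) and *Ly6a* (0.173). *P2rx7* was too low to be matched.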

How the data were processed

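RNA-Seq of 8 libraries (4 groups of 2) was analysed from the table of normalized counts that the authors deposited. Per the study's methods, reads were aligned with STAR to mm10, quantified to RefSeq transcripts in Partek Flow and scaled by DESeq2's median-ratio size factors, so the deposited values are a depth-scaled signal per gene and not raw counts. Whole reads could not be recovered (53.0 to 73.7% of values under 1000 reads were whole within 0.02 reads), so no count model was used. limma 3.58.1 in R 4.3.3 was fitted on log2(normalized count + 1), with a trend, to all 24303 genes and 8 libraries with 4 group means, and a fold change is on that scale. P-values were adjusted by Benjamini-Hochberg over all genes. Fits were tested on simulated data. The 9 genes, the lists and the genes named from them were chosen with earlier results of these data known. From each list, up to 4 called genes per comparison with the largest differences and a mean of at least 50, and paralogs of the 9, were named, as were the 3 genes most like each of the 9 in pattern. *Panx1*, *P2rx5*, *P2rx6*, *Adora1* and the overlapping genes were named after their values were seen. Alternatives covered pseudocount, low-level filters, scaling, voom, looser call limits, the groups fitted, the prefix RESUB, the replicate number and each library left out. Replicate numbers were not taken as pairs. Sequences and positions are from RefSeq and GENCODE (GRCm38). Promoter entries were found for 8 of the 9 genes.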

Additional observations from a re-analysis of the deposited data

How the results depend on the processing

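Of the 16 called results of the 9 genes, none changed direction, and 1 (*Nt5e*, T_Dysf against Effector) stayed called in each setting. Of 47 calls of list genes, 6 were kept in every setting, and none changed direction. Calls of the 9 genes were kept in 200 of 224 fits with other settings and in 76 of 128 fits that left out 1 library. The number of the 9 genes called, 3, 5, 4, 0, 2 and 2 (T_Dysf against Acute-7d, against Acute-2d, against Effector, Acute-7d against Acute-2d, and Effector against Acute-7d and Acute-2d), ran over the left-out libraries from 1 to 3, 1 to 4, 1 to 4, 0 to 0, 1 to 3 and 1 to 2, and that of the F test (4) from 2 to 5. When only the groups compared were fitted it was 1 for T_Dysf against Acute-7d, 1 against Effector, and 0 and 0 for Effector against the rested groups. With the term for RESUB, which rests on the difference between the 2 Acute-7d libraries, each of these was 1. Correlations of the replicate differences ran from -0.199 to 0.197 and were over 0.1 in 2 of 6 pairs of groups. With a single such difference per group they cannot decide if replicate numbers pair the samples. The replicate block left T_Dysf against Acute-2d with 3 calls. The cause of these changes was not tested. Some of the other settings only loosen the call rule: an unadjusted p under 0.05, an adjusted p under 0.1, or no fold limit. No call can be lost under these, yet they are included in the counts of other settings given here and above.

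Results that were not called changed sign as follows. For T_Dysf against Acute-2d, *Ada* became 0.0011 with equal totals and 0.0655 with quantile normalization. With the term for RESUB, T_Dysf against Effector became 0.20 for *P2rx4* and -0.0812 for *Ada*. Acute-7d against Acute-2d became 0.22 for *Adora2a*, 0.50 for *P2rx7* and 0.050 for *Slc29a1*. *P2rx7* became 0.66 and 1.16 in Effector against Acute-7d and Acute-2d, and *Ada* 0.0775 against Acute-2d. Over the left-out libraries, T_Dysf against Acute-2d ran from -0.79 to 0.0743 for *Adora2a* and -0.0583 to 0.0509 for *Ada*, and T_Dysf against Effector from -0.38 to 0.10 for *P2rx4* and -0.28 to 0.43 for *Ada*. Acute-7d against Acute-2d ran from -0.0218 to 0.17 for *Nt5e*, -0.0639 to 0.81 for *Cd38*, -0.47 to 0.40 for *Adora2a*, -2.42 to 0.50 for *P2rx7*, -0.0311 to 0.64 for *Art2b* and -0.22 to 0.12 for *Slc29a1*. Effector against Acute-7d ran from -0.0247 to 0.87 for *Cd38* and -2.26 to 0.66 for *P2rx7*, and against Acute-2d from -0.14 to 0.51 for *Entpd1* and -0.43 to 0.27 for *Ada*.

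Over all genes, calls between T_Dysf and Acute-7d went from 1353 to 541 with the term for RESUB and 891 with the replicate block, and those between T_Dysf and Effector from 2241 to 386 and, in those groups alone, 465. A fit without a library leaves a single library in its group. In such fits the calls over all genes also fell for at least some libraries, in every comparison but Acute-7d against Acute-2d. Lost calls were therefore not limited to the genes named here.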
